A study of Ovis aries with 18 samples.

Results

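The genes described here license and carry out DNA replication: the 6 subunits MCM2 to MCM7 of the replicative helicase, the fork proteins MCM10, CDC45 and GINS1, and the sliding clamp PCNA. They were chosen by name as members of the MCM complex and of the replication fork, and all 10 were in the table of 20092 genes. A gene was tested when it had at least 15 counts in more than 3 pools, which 16488 genes and all 10 of these did. Before S phase, MCM2 to MCM7 are loaded as a ring onto replication origins, a step called licensing. At the start of S phase CDC45 and the GINS complex join the ring to form the active helicase, MCM10 helps to activate it, and PCNA then holds the DNA polymerases on the template. Cells of the early embryo divide often, and these genes are generally transcribed in dividing cells.

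Blastocysts were collected from synchronized and superovulated Polypay ewes 8 days after the introduction of rams that had been fed a control diet or the same diet with a top-dress of rumen-protected methionine, which is shielded from breakdown in the rumen. The dose was 1.5 g (0.22%), fed for 77 days before puberty from a mean age of 88 days. RNA of 12 pools of 5 whole embryos, inner cell mass and trophectoderm together, was amplified and sequenced. The embryos ranged from early to hatched blastocysts. The authors described the stages as balanced between the groups, and the labels give no stage for a pool. The control group had 6 pools from 3 rams (Ram410, Ram423 and Ram444, 2 pools each), and the methionine group had 6 pools from 3 rams (4 pools from Ram424 and 1 each from Ram498 and Ram511). Because pools of a ram share the sire, and can also share the ewe, p-values over pools treat related samples as independent. The labels of the pools name the ram and not the ewe.

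The counts of a pool summed to 1017847 (Embryo511_1) up to 2398589 (Embryo424_1). These are reads assigned to genes, and the authors reported far more sequenced reads per pool. Why the rest were not counted was not examined. Values are given as CPM (counts scaled to a common library size) after TMM scaling, which sets a common level for most genes across pools. Exact Poisson intervals (95%) on single counts cover counting error only, since several reads can come from 1 amplified molecule and no identifiers tell them apart. Levels are compared between pools and not between genes, because the lengths of transcripts were not used here. A gene called the most abundant of a list, or said to lead it, is so by CPM that are not corrected for length.

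Pools Embryo444_2 (control) and Embryo511_1 (methionine, the 1 pool of Ram511) stood apart from the rest. Their Spearman correlations with each other and with the other pools were 0.526 to 0.626 over genes, against 0.806 to 0.955 among the other 10 pools. Among the 8 trophectoderm markers measured, KRT8 was the most abundant, and the list summed to 320.0 CPM in Embryo444_2 and 213 CPM in Embryo511_1, against 5280 to 14387 CPM in the other 10 pools. KRT8 itself was at 116 and 42.6 CPM in these pools and at 3893 to 11862 CPM in the others. The 5 epiblast markers, led by POU5F1, summed to 70.8 and 53.5 CPM against 177 to 559 CPM. The 6 hypoblast markers, led by GATA6, summed to 308 and 307 CPM against 426 to 965 CPM. These sums are carried by their most abundant genes, and not every marker was low in the 2 pools. In Embryo444_2, EOMES (96.3 CPM, against 24.1 to 67.9 CPM in the 10 pools), DPPA4 (44.6 against 7.10 to 24.7), PDGFRA (166 against 96.3 to 155), FOXA2 (39.6 against 0.710 to 9.21) and APOE (35.4 against 4.78 to 17.3) were above the other pools. In Embryo511_1, GATA4 (94.2 against 18.2 to 44.3 CPM), FOXA2 (13.9) and APOE (17.8) were above them, so that 3 of the 6 hypoblast markers were high in each pool and the low sum is that of GATA6. The markers ELF5 and NANOG were inside the range of the 10 pools in both.

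The sum over 5 genes that every cell uses was also low there, led by HSP90AB1, at 198 and 555 CPM against 1700 to 4184 CPM, although HPRT1 in Embryo511_1 (20.8 CPM) was inside its range. The 5 mitosis markers, led by MKI67, summed to 762 and 691 CPM, within the 448 to 769 CPM of the other pools, but in Embryo444_2 this sum hides differences in both directions. There MKI67 (399 CPM against 89.5 to 331) and TOP2A (158 against 67.1 to 139) were above the 10 pools, and BUB1 (105 against 107 to 258) and CCNB1 (43.89 against 43.91 to 86.5) were just below them. The sperm list of 4 genes summed to 1085 CPM in Embryo511_1, nearly all of it TNP1 (1008 CPM), and to 29.3 to 106 CPM in the other 11 pools, Embryo444_2 (50.3 CPM) included. The 7 oocyte genes summed to 858 CPM in Embryo511_1, with ZP3 at 410 CPM, and to 145 to 205 CPM in the other pools. Blood (2 genes, led by PTPRC) reached 128 CPM in Embryo444_2 and 265 CPM in Embryo511_1 against 49.8 to 93.3 CPM. PTPRC alone was higher there, and CD74, at 7.08 and 10.9 CPM, was inside its range of 5.90 to 21.1 CPM. The uterine genes (6, led by COL1A1) summed to 271 and 246 CPM against 141 to 187 CPM. Above the other pools were COL1A1 (115 and 119 CPM against 28.9 to 83.5 CPM) in both and MUC1 (53.1 CPM against 8.85 to 17.5 CPM) in Embryo444_2, and none of the other uterine genes. Of the cumulus and granulosa list 1 gene, FOXL2, was measured, at 32.6 and 16.9 CPM in these pools and 0.714 to 47.5 CPM in the others. SOX17 and ZAR1 had no counts in Embryo511_1 alone. UTF1 had none there either, nor in Embryo410_1, Embryo410_2, Embryo423_1 and Embryo498_1. The part of these differences in the results below was not tested, and the tests below are given with and without these pools. The highest count of any gene was 2516 in Embryo444_2 and 5117 in Embryo511_1, against 9153 to 24131 in the other 10 pools. In pooled embryos, fewer cells that transcribe a gene, less RNA per cell and a difference in amplification or library cannot be told apart.

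Over all 12 pools MCM2 varied more than the other subunits of the ring, but not over the 10 pools without the 2 that stood apart, where its coefficient of variation was 39.3% and that of MCM5 41.5%. Its level in control pools was 16.3 CPM at the lowest (Embryo444_2), 109.8 CPM at the median and 220.3 CPM at the highest (Embryo410_2). In methionine pools it was 5.95 CPM (Embryo511_1), 154 CPM and 261 CPM (Embryo424_3). The groups overlapped over nearly the whole range, and the lowest pool of each was a pool that stood apart. Embryo444_2 had 23 counts of MCM2, an interval of 10.3 to 24.4 CPM, and Embryo511_1 had 6 counts, an interval of 2.18 to 12.9 CPM. These levels were 10.5% and 3.83% of the median of the other 10 pools, among which MCM2 ranged from 75.1 to 261 CPM.

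MCM7 showed the same 2 pools at the bottom. Control pools ranged from 77.2 CPM (Embryo444_2) over a median of 277 CPM to 488 CPM (Embryo423_1), and methionine pools from 98.1 CPM (Embryo511_1) over 405 CPM to 468 CPM (Embryo424_4). The 2 low pools had 21.4% and 27.2% of the median of the other 10, whose values lay between 228 and 488 CPM and overlapped between diets.

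Over all 12 pools MCM6 had the lowest estimated variation of the 10 genes (biological coefficient of variation 0.310, against 0.712 for MCM2), and it gave the smallest p-value between diets. Over the 10 pools its coefficient of variation was 35.0%, above the 26.2% of MCM7. In control pools it ranged from 60.9 CPM (Embryo444_2) over a median of 75.3 CPM to 86.6 CPM (Embryo444_1). In methionine pools it ranged from 79.5 CPM (Embryo498_1) over 125 CPM to 164 CPM (Embryo424_1). The 4 pools of Ram424, at 116, 134, 161 and 164 CPM, were above every control pool. The highest values, 164 and 161 CPM, are those of Embryo424_1 and Embryo424_2, the most alike of all pairs of pools (Spearman 0.955). The pools of the other methionine rams, at 79.5 CPM (Embryo498_1) and 81.3 CPM (Embryo511_1), lay inside the control range. Averaged by ram, MCM6 was at 73.4, 78.3 and 73.7 CPM in Ram410, Ram423 and Ram444, and at 144, 79.5 and 81.3 CPM in Ram424, Ram498 and Ram511. The 3 methionine rams did not overlap the 3 control rams, with 79.5 CPM in the lowest methionine ram and 78.3 CPM in the highest control ram. They did overlap without the 2 pools that stood apart, since Ram444 is then Embryo444_1 alone (86.6 CPM), above Ram498.

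**Figure D1:**
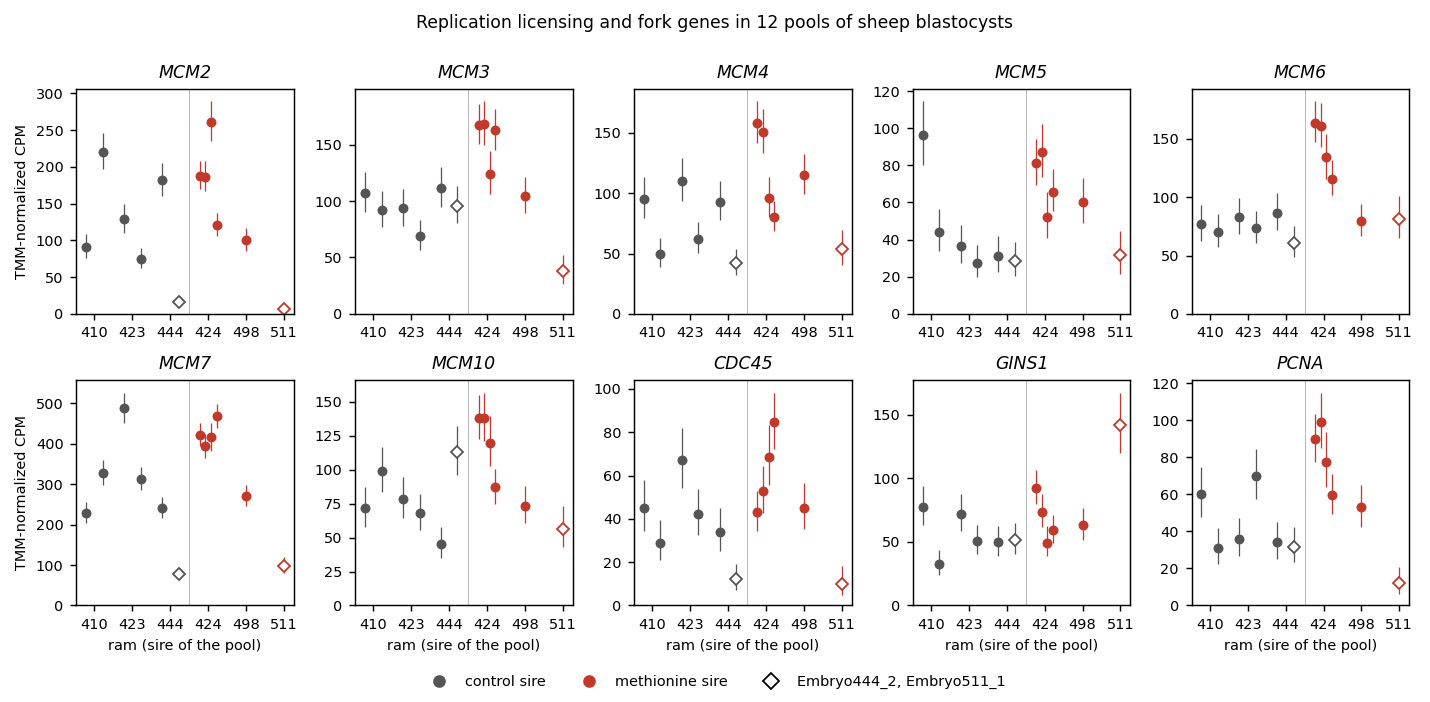
TMM-normalized CPM (vertical axes, from 0) of the 10 genes in each of the 12 pools, ordered by the ram that sired the pool (horizontal axes). Grey points are control pools, red points are methionine pools, open diamonds are Embryo444_2 and Embryo511_1, and bars are exact 95% Poisson intervals of the count. For MCM6 the 4 pools of Ram424 lie at 116 to 164 CPM, above the highest control pool at 86.6 CPM, and for MCM2 both open diamonds lie below 17 CPM.

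MCM3, MCM4 and MCM5 complete the ring. MCM3 ranged in control pools from 68.7 CPM (Embryo423_2) over a median of 94.6 CPM to 111 CPM (Embryo444_1). In methionine pools it ranged from 37.7 CPM (Embryo511_1) over 143 CPM to 168 CPM (Embryo424_2). All 4 pools of Ram424 were above all 6 control pools for MCM3, as for MCM6 and for 2.51% of all genes tested, while Embryo511_1 was below every control pool.

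MCM4 ranged from 41.8 CPM (Embryo444_2) over 77.6 CPM to 110.0 CPM (Embryo423_1) in control pools and from 53.5 CPM (Embryo511_1) over 106 CPM to 158 CPM (Embryo424_1) in methionine pools. MCM5 ranged from 27.6 CPM (Embryo423_2) over 33.8 CPM to 96.3 CPM (Embryo410_1) in control pools. In methionine pools MCM5 ranged from 31.7 CPM (Embryo511_1) over 63.0 CPM to 87.2 CPM (Embryo424_2). The highest MCM5 value of all was therefore in a control pool, and Ram410 (70.1 CPM) and Ram424 (71.6 CPM) had similar means of this gene. The mean of Ram410 rests on Embryo410_1, since Embryo410_2 had 43.9 CPM, below the 52.2 to 87.2 CPM of the pools of Ram424.

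Among the proteins that act on the loaded ring, MCM10, which helps to turn it into an active helicase, was not low in both pools that stood apart. It was at 113 CPM in Embryo444_2, the highest control value, and at 56.5 CPM in Embryo511_1, the lowest methionine value. The control pools had a lowest value of 45.4 CPM (Embryo444_1) and a median of 75.0 CPM, and the methionine pools had a median of 103 CPM and a highest value of 138 CPM (Embryo424_2). Both extremes of the control group came from Ram444, so that the pools of a single ram spanned the whole control range.

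CDC45, a component of the active helicase, resembled MCM7. It ranged from 12.0 CPM (Embryo444_2) over 38.2 CPM to 67.1 CPM (Embryo423_1) in control pools and from 9.91 CPM (Embryo511_1) over 48.9 CPM to 84.6 CPM (Embryo424_4) in methionine pools. The 2 pools that stood apart had 17 and 10 counts, intervals of 7.01 to 19.3 CPM and 4.75 to 18.2 CPM, and these intervals lay below the lowest of the other 10 pools (29.0 CPM).

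GINS1, a subunit of the GINS complex that joins the ring with CDC45, went the other way in Embryo511_1. That pool had 142 CPM (143 counts, an interval of 119 to 167 CPM), the highest of the 12 pools and 231% of the median of the other 10. The remaining methionine pools lay between 49.4 CPM (Embryo424_3) and 92.2 CPM (Embryo424_1), and the 6 had a median of 68.4 CPM. Control pools ranged from 32.6 CPM (Embryo410_2) over 51.2 CPM to 77.5 CPM (Embryo410_1), with Embryo444_2 at 51.7 CPM in the middle. Of the 10 genes, GINS1 was the 1 whose highest ram mean was not that of Ram424.

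PCNA, the clamp that tethers the polymerases, ranged in control pools from 31.2 CPM (Embryo410_2) over 34.9 CPM to 69.9 CPM (Embryo423_2). In methionine pools it ranged from 11.9 CPM (Embryo511_1) over 68.6 CPM to 99.1 CPM (Embryo424_2). Embryo511_1 had 12 counts, an interval of 6.15 to 20.8 CPM, below every other pool. Embryo444_2, at 31.9 CPM, was close to the lowest control pools and not apart from them.

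Across the 10 genes, Ram424 had the highest mean of the 6 rams for 9, against 16.7% of all genes tested, and the highest single pool was one of its 4 for 7, against 24.4%. The lowest single pool was Embryo444_2 or Embryo511_1 for 7 of the 10, against 38.3% of all genes, and both lowest pools were these for 3 (MCM2, MCM7 and CDC45), against 12.9%. The pools of Ram424 include those with the highest total counts, and Embryo511_1 had the lowest total. Embryo424_1 and Embryo424_2 were the most alike of all pairs of pools (Spearman 0.955). In these pools the genes every cell uses summed to 4184 and 4102 CPM, against at most 2891 CPM in the others. The hypoblast markers summed to 965 and 892 CPM (at most 640 in the others), and the mitosis marker PLK1 was at 219 and 221 CPM (at most 114). Their trophectoderm and epiblast sums were inside the range of the other pools. The part of the total counts and of these differences in the patterns was not tested. Without the 2 pools, the spread of the 10 genes was that of the table at large: the median coefficient of variation over the other 10 pools was 34.1% for these genes and 33.6% for all genes tested.

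Whether the diet of the sire was associated with the level of these genes was tested over all 16488 genes by edgeR's quasi-likelihood fit, with a false discovery rate (FDR) under 0.05. None of the 10 genes passed, and neither did any gene of the table (0%). With edgeR's likelihood-ratio test and with DESeq2, 0 of the 10 passed as well, against 5 and 16 of the 16488 genes. All 10 had a higher fitted level in methionine pools, against 50.5% of all genes tested, with log2 fold changes of 0.28 to 0.71 and a median of 0.47 against 0.01 over all genes. At an unadjusted p under 0.05 there was 1 of the 10, MCM6, against 7.92% of all genes. Its log2 fold change was 0.71 ± 0.24 (SE; 95% interval 0.20 to 1.21), with an FDR of 0.584 in edgeR. That fit does not use the ram. With the ram as a random effect in limma the estimate for MCM6 was 0.53 ± 0.27 (SE), and with the pools of each ram summed it was 0.48 ± 0.35 (SE), and neither had an unadjusted p under 0.05. In these 2 fits 8 of the 10 genes were above 0, against 49.3% and 53.5% of all genes, MCM2 and MCM7 were below 0, and the medians of the 10 were 0.25 and 0.17.

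The other intervals all included 0. They were widest for MCM2, at 0.28 ± 0.60 (SE; -0.99 to 1.55), and the next largest estimate was that of PCNA, at 0.58 ± 0.38 (SE; -0.23 to 1.38). Each of these estimates has an FDR of at least 0.584, so that the direction shared by the 10 genes is a count and not a result of the test. The genes also vary together over pools, as described below, and are not independent of each other.

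Without the 2 pools that stood apart, again none of the 10 passed, against 0.00619% of the genes tested (1 of 16161). All 10 estimates were above 0, against 47% of all genes, and their median was 0.54. An unadjusted p under 0.05 was reached by 5 of the 10 (MCM3, MCM4, MCM6, MCM10 and PCNA), against 11.9% of all genes. MCM6 had a log2 fold change of 0.73 ± 0.21 (SE) and an FDR of 0.262 in edgeR, and MCM3 had 0.61 ± 0.21 (SE) and an FDR of 0.303. The estimate of GINS1 was 0.25 ± 0.25 (SE), against 0.52 ± 0.29 (SE) over 12 pools.

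The shared direction was not kept in each choice of pools. Without the 4 pools of Ram424, 4 of the 10 estimates were above 0 (MCM4, MCM5, MCM6 and GINS1), against 47.5% of all genes. The median of the 10 was then -0.34, and the estimates ran from -1.13 for MCM2 to 0.88 for GINS1. The methionine group of that comparison consists of Embryo498_1 and Embryo511_1. Without Ram424 and without the 2 pools that stood apart, it consists of Embryo498_1 alone, whose spread is taken from the control pools. There 8 of the 10 were above 0, against 44.4% of all genes, with a median of 0.10 against -0.07, and MCM6 was at 0.03 ± 0.34 (SE).

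**Figure D2:**
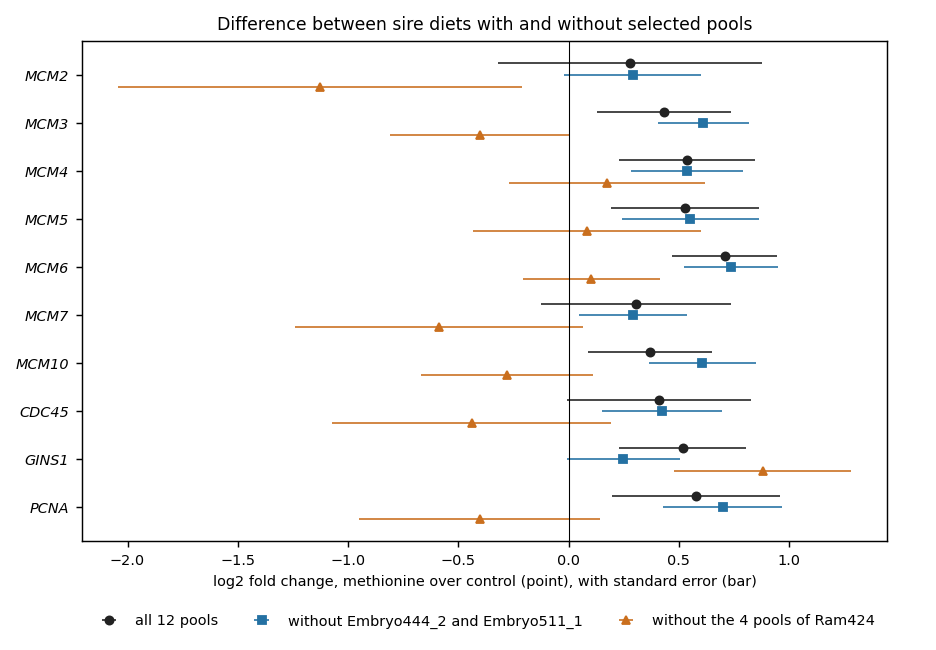
Log2 fold change between sire diets (methionine over control, horizontal axis) of each gene, with its standard error as a bar, from the edgeR fit of all 12 pools (black), of 10 pools without Embryo444_2 and Embryo511_1 (blue) and of 8 pools without Ram424 (orange). All 10 black and all 10 blue points are above 0, against 4 of the 10 orange points.

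The mean log2 CPM of the diets was also compared by exact permutation, 2-sided, over all assignments of pools, which gave p = 0.0152 for MCM6 and p of 0.110 to 0.946 for the other 9 genes, not adjusted. Of all genes tested, 6.54% had a p under 0.05 in this test. Over the 252 assignments of the 10 pools without the 2 that stood apart, the exact permutation p was 0.0238 for both MCM6 and MCM3, the 2 of the 10 genes under 0.05, against 8.9% of all genes. With the ram as the unit, 3 rams against 3 cannot give a p under 0.1 in the 20 assignments. That smallest value was reached by 2 of the 10 genes, MCM6 and GINS1. Their methionine rams were all above the control rams, as were those of 3.31% of all genes tested. Genes whose methionine rams were all below the control rams also reach this p and are not in that share. For GINS1 the ram means were 55.0, 61.4 and 50.7 CPM in Ram410, Ram423 and Ram444 (control), and 68.7, 63.2 and 142 CPM in Ram424, Ram498 and Ram511 (methionine), the last from Embryo511_1 alone. When the 2 pools that stood apart are left out, Ram511 has no pool, and the rams no longer separate for MCM6. For GINS1 they do, with 49.7 CPM in Embryo444_1 as the pool of Ram444.

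Differences between the rams of a diet were tested with 4 contrasts in the same kind of fit. In it the ram stands for the sire and for any ewe that its pools share. Ram498 and Ram511 have 1 pool each, and the spread comes from the rams with more pools. None of the 10 genes passed, against 3.97% of the genes tested (654). An unadjusted p under 0.05 was reached by 6 of the 10 (MCM2, MCM3, MCM5, MCM7, CDC45 and PCNA), against 23.7% of all genes. The smallest FDR were those of MCM3 (0.0874) and PCNA (0.0878) in edgeR. For both genes the ram with the lowest mean was Ram511, represented by Embryo511_1, at 37.7 and 11.9 CPM against 156 and 81.5 CPM in Ram424.

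Without the 2 pools that stood apart, none of the 10 genes had an FDR under 0.05, against 0.142% of all genes (23 of 16161), and none had an unadjusted p under 0.05, against 10.4%. The smallest p was that of MCM5 (0.0551, FDR 0.489 in edgeR). In the control pools alone, no gene of the table passed, and MCM5 again had the smallest p of the 10 (0.0613), with 70.1 CPM in Ram410 against 32.0 and 29.8 CPM in Ram423 and Ram444. With the likelihood-ratio test of edgeR, 5 of the 10 passed over all 12 pools (MCM2, MCM3, MCM7, CDC45 and PCNA), as did 2834 of the 16488 genes. All 5 were at their lowest or second lowest in Embryo511_1, and without the 2 pools that stood apart none of the 10 passed the likelihood-ratio test, against 377 of 16161 genes, and 1 (MCM5) had an unadjusted p under 0.05, against 2060 of 16161.

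The genes varied together over pools. The median Pearson correlation of log2 CPM over the 45 pairs of the 10 genes was 0.593 over 12 pools and 0.488 over the 10 pools without the 2 that stood apart, against -0.001 in both cases over all pairs of genes tested. By Spearman's coefficient the median was 0.524 over 12 pools. After the mean of each diet was subtracted, the median was 0.599 over 12 pools and 0.246 over 10. These are descriptions: the points share their library, depth and amplification, and pools of a ram are related.

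Over 12 pools the closest pair was MCM7 with CDC45 (r = 0.926), followed by MCM2 with MCM7 (0.867), and these are the 3 genes with both outlying pools at the bottom. Over 10 pools MCM7 and CDC45 had r = 0.675 and MCM2 and MCM7 had 0.336. The closest pairs there were MCM3 with MCM6 (0.870) and MCM4 with GINS1 (0.854). GINS1 differed most between the choices of pools: its median correlation with the other 9 genes was -0.215 over 12 pools and 0.488 over 10. MCM2 went the other way, from 0.606 to 0.147.

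**Figure D3:**
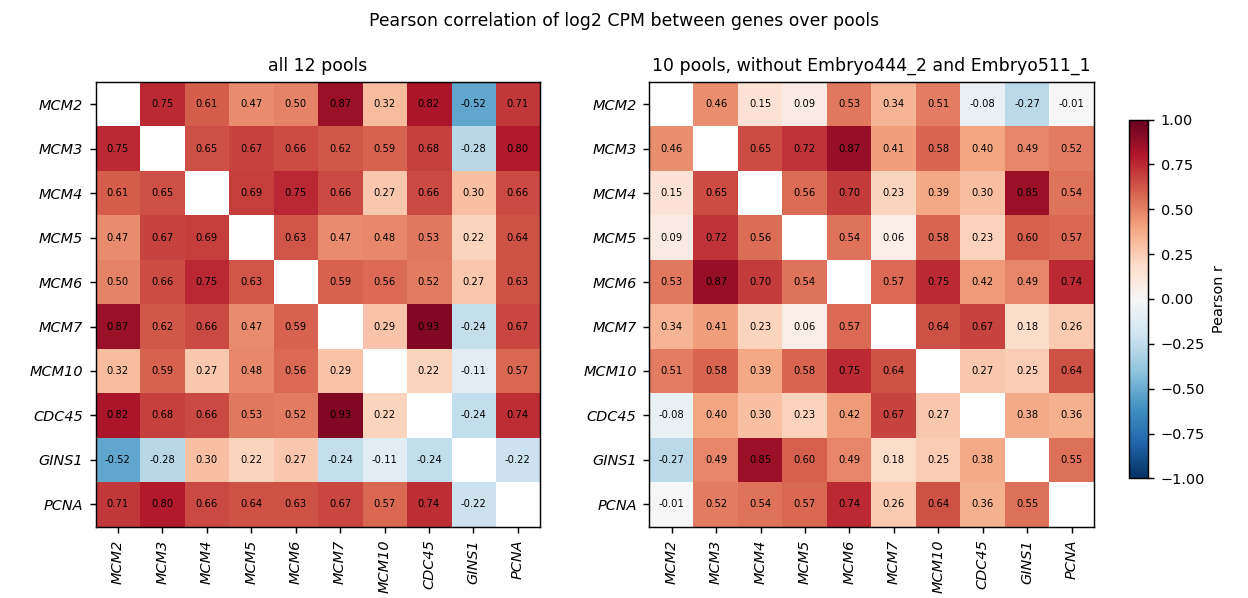
Pearson correlation of log2 CPM for each pair of the 10 genes over all 12 pools (left) and over the 10 pools without Embryo444_2 and Embryo511_1 (right), on a colour scale from -1 to 1. MCM7 with CDC45 has 0.926 on the left and 0.675 on the right, and the row of GINS1 holds 6 values below 0 on the left and 1 on the right.

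The 5 genes outside the replication lists whose log2 CPM was most correlated with the mean of MCM2 to MCM7 over 12 pools, among 12618 genes with a mean of at least 20 CPM, were LRRC59, VAC14, ATP5PB, KLF16 and CDO1. For LRRC59 the Pearson correlation was 0.981 and Spearman's 0.965, and over the 10 pools Pearson's was 0.947. For CDO1 these were 0.969, 0.881 and 0.872. LRRC59 was at 19.1 and 20.8 CPM in Embryo444_2 and Embryo511_1 and at 61.0 to 169 CPM in the other pools, and CDO1 at 24.8 and 14.9 CPM against 81.4 to 282 CPM. None of the 5 passed the test between diets in edgeR (FDR of 0.663 to 0.722).

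The other replication genes gave a context of 71 genes in 5 lists, of which 66 were in the table and all 66 were tested. None passed the test between diets, 46 had an estimate above 0 (69.7%, against 50.5% of all genes), and their median was 0.15. An unadjusted p under 0.05 was reached by 3 with a higher and 1 with a lower level in methionine pools, against 586 higher and 720 lower among all genes (7.92%). Without the 2 pools that stood apart, none passed, 46 were above 0, the median was 0.17, and the counts at an unadjusted p under 0.05 were 8 higher and 3 lower, against 11.9% of all genes.

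Of the 12 genes of origin recognition and loading, 9 were above 0, with a median of 0.17. CDC6, which helps to load the ring, had 46.3 ± 12.2 CPM in control pools and 77.7 ± 30.8 CPM in methionine pools (SD, n = 6), a log2 fold change of 0.75 ± 0.29 (SE) with an FDR of 0.585 in edgeR. Its highest values were those of Embryo424_2 (117 CPM) and Embryo424_1 (109.9 CPM), and the pools Embryo498_1 (45.2 CPM), Embryo424_3 (49.4 CPM) and Embryo511_1 (60.5 CPM) were within the control range of 25.5 to 63.6 CPM. Its estimate was 0.67 over the 10 pools. MCMBP, which binds MCM subunits, had an estimate of 0.55, and the lowest estimates were those of CDT1 (-0.48), the partner of CDC6 in loading, and MCM9 (-0.40). The CDT1 estimate rests on control pools Embryo423_1 (79.3 CPM) and Embryo410_2 (53.8 CPM). The other control pools had 9.91 to 22.6 CPM of CDT1, and methionine pools 12.8 to 34.9 CPM. For MCM9, Embryo444_1 had 174 CPM, the other control pools 39.6 to 97.1 CPM and methionine pools 29.6 to 89.5 CPM. Of the 11 genes of firing and helicase activation, 9 were above 0 (median 0.24). GINS2, another subunit of the complex that holds GINS1, had the highest estimate (0.53). Over the 10 pools its estimate was 0.31, below the 0.48 of TOPBP1, the highest there, and the 0.44 of CDC7. The GINS2 level in Embryo511_1, 128 CPM, was the highest methionine value, as for GINS1. For GINS3 and GINS4, of the same complex, that pool had the lowest methionine values (8.92 and 39.7 CPM). CDC7, the kinase that phosphorylates the ring, had 0.41, and TICRR (-0.19) and GINS3 (-0.13) had the lowest.

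Of 25 genes of polymerases, clamp loading and the fork, 21 were tested and 14 were above 0 (median 0.16). RFC3, a subunit of the complex that loads PCNA, had 23.1 ± 8.88 CPM in control pools and 45.5 ± 23.2 CPM in methionine pools (SD, n = 6), a log2 fold change of 0.98 ± 0.36 (SE) with an FDR of 0.585 in edgeR. Its highest values were those of Embryo424_2 and Embryo424_1 (77.6 and 68.8 CPM), and the pools Embryo424_4 (20.6 CPM), Embryo498_1 (28.9 CPM) and Embryo424_3 (30.4 CPM) were within the control range of 12.7 to 34.6 CPM. Its estimate was 0.84 over the 10 pools. The ligase LIG1 had an estimate of 0.62, and POLD2 (-0.95) and POLA1 (-0.49), subunits of polymerases, had the lowest. POLA1 had 365 CPM in Embryo444_2, whereas the 5 remaining control pools had 41.4 to 109.9 CPM. The POLA1 estimate was 0.10 over the 10 pools. For POLD2, Embryo410_2 had 167 CPM and the other control pools had 19.2 to 58.9 CPM, against 11.9 to 72.0 CPM in methionine pools.

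All 6 genes of nucleotide supply were above 0 (median 0.47), and 5 of the 6 were without the 2 pools that stood apart (DUT was at -0.07). RRM2, a subunit of ribonucleotide reductase, had 47.6 ± 15.6 CPM in control pools and 77.1 ± 26.5 CPM in methionine pools (SD, n = 6) and an FDR of 0.607 in edgeR, and its estimate was 0.70 (0.65 without the 2 pools). The thymidine kinase TK1 had 0.91 with a wide spread, and DUT (0.04) and RRM1 (0.14) had the lowest. Of 17 genes of S phase control, 16 were tested and 8 were above 0 (median 0.05). Cyclin A2 (CCNA2) had 0.98 ± 0.47 (SE; FDR 0.639 in edgeR; 0.96 without the 2 pools), with 65.6 to 132 CPM in the 4 pools of Ram424, 35.5 CPM in Embryo498_1, 14.9 CPM in Embryo511_1 and at most 54.2 CPM in control pools. SKP2 had 0.33 and CCNE2 -0.49. TFDP1, a partner of the E2F factors, had -2.37 ± 0.73 (SE; FDR 0.584 in edgeR), which rests on 2 control pools: Embryo423_1 had 185 CPM and Embryo410_1 94.8 CPM, and the other 10 pools had 5.42 to 17.6 CPM.

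Genes that lie next to each other can share reads where the counting does not use the strand, and the strand setting of the counts is not stated. In RefSeq's annotation of ARS-UI_Ramb_v3.0, a later assembly than that of the counts, 10 of 10 symbols were matched and 4 of the genes had another gene within 1000 bases. MCM4 has PRKDC as its neighbour, CDC45 has UFD1, and MCM7 has AP4M1 and COPS6, and is overlapped by the microRNA genes MIR106B and MIR25 and by a long noncoding RNA. MCM6 overlaps a long noncoding RNA. The levels of MCM7 and MCM6 are therefore uncertain by the share of reads from these overlapping genes, which were not analysed here. PRKDC was at 334 and 449 CPM in Embryo444_2 and Embryo511_1, above its 185 to 321 CPM in the other pools, whereas MCM4 was at 41.8 and 53.5 CPM there. COPS6 was at 9.91 and 17.8 CPM in these pools against 30.0 to 98.8 CPM in the others, low in the same pools as MCM7. AP4M1 was at 31.9 and 12.9 CPM, inside its 12.6 to 39.7 CPM in the others, and its correlation with MCM7 was -0.221 over 12 pools and -0.498 over 10. The correlation of MCM7 with COPS6 was 0.780 over 12 pools and 0.143 over 10. UFD1 was also low in both, at 32.6 and 8.92 CPM against 39.1 to 121 CPM, and its correlation with CDC45 was 0.701 over 12 pools and -0.197 over 10.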

How the data were processed

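RNA of 12 pools of 5 blastocysts was amplified as whole transcriptome and sequenced. The authors trimmed the reads with Trimmomatic, aligned them with STAR to Oar_rambouillet_v1.0 and deposited raw counts per gene. The strand setting is not stated. The sperm methylation values of the same series were not used here. Pools were grouped by the diet and ram in their labels, and every pool column was mapped.

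A gene was kept if more than 3 pools had 15 counts or more of it (16488 of 20092). The fit was that of edgeR 4.0.16 (R 4.3.3) with TMM factors, its quasi-likelihood test and Benjamini-Hochberg adjustment over all of them. The common biological coefficient of variation was 0.450. Limma 3.58.1 gave a consensus correlation of pools of a ram of 0.263. DESeq2 1.42.0 served as an alternative. CPM were scaled with the same factors, and log2 CPM used a prior count of 1. Ratios of counts between pools, taken over genes with at least 20 counts in a pair, exceeded sampling noise in all pairs: the mean chi-square per gene, 1 under sampling noise alone, was at least 3.29 (Embryo424_1 with Embryo424_2). The fits were tested on simulated data with known changes. At this FDR the diet test missed most of the smaller ones there and the ram test called none, so that a gene that did not pass is not shown to be equal between groups. Other steps were done in Python 3.11.15 (pandas 2.3.3, numpy 2.4.6, matplotlib 3.10.9, scipy 1.17.1).

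The genes and lists were chosen with earlier results of these data known. Named are the 10 genes, in each other list the genes at an unadjusted p under 0.05 and the 2 highest and 2 lowest estimates, the 5 genes most correlated with MCM2 to MCM7, and the marker genes. TOPBP1 and GINS4 are named as well, for comparison with GINS2. Alternatives were the likelihood-ratio test, DESeq2, RLE and upper quartile factors, other filters, a random effect of the ram, sums of each ram's pools, other prior counts, Spearman's coefficient, the control pools alone, and each pool and each ram left out. Chosen after seeing the data were leaving out Embryo444_2 and Embryo511_1, leaving out Ram424 as well, summing Embryo424_1 and Embryo424_2, and the likelihood-ratio test between rams without the 2 pools. Levels per transcript length and sperm methylation at these genes were planned and not run, since exon lengths and an annotation of the files' build were not used here.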

Additional observations from a re-analysis of the deposited data

Results flagged for a closer look

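Of 20 groups of 6 pools (10 genes in 2 diets), 1 held a pool whose gap to its nearest neighbour, as a share of the range of the group, was above Dixon's 95% critical value, which chance alone exceeds in about 1 in 20 groups. MCM5 was at 96.3 CPM in control pool Embryo410_1, and the next control pool had 43.9 CPM, a gap of 0.763 of the range. The cause of this value was not tested. Without this pool, the log2 fold change of MCM5 between diets was 0.92 ± 0.28 (SE), with an FDR of 0.614 in edgeR, against 0.53 ± 0.34 (SE) with it.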

How the results depend on the processing

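None of the 10 genes, and none of the other replication genes tested (66, or 64 without Embryo444_2, Embryo511_1 and Ram424), passed the test between diets in any of the alternatives run. The count of all genes that passed was 0 in the test as reported, 5 with the likelihood-ratio test, 16 with DESeq2, 1 without Embryo444_2 and Embryo511_1, and 2 when Ram424 was left out as well. Over 27 distinct alternatives, the sign of a gene's estimate differed from that reported in 12 of 270 cases, 8 of them without Ram424 and 4 with pools summed per ram or with the ram as a random effect, where MCM2 (-0.25 and -0.24) and MCM7 (-0.03 and -0.02) were below 0 and the medians of the 10 genes were 0.17 and 0.25. With each pool and each ram left out in turn, 4 to 10 genes were above 0, and their median ranged from -0.34 (without Ram424) to 0.62. Summing Embryo424_1 and Embryo424_2 gave a median of 0.42, and 0.61 ± 0.25 (SE) for MCM6.

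For differences between rams, the likelihood-ratio test called 5 of the 10 genes and 2834 in all, the control pools alone called 0 in all, and the fit without the 2 pools called 23, or 0 of the 10 genes and 377 in all with the likelihood-ratio test. The permutation test over pools gave an unadjusted p under 0.05 for 1 of the 10 genes with each prior count (6.54% of all genes with a prior count of 1), and for 2 without the 2 pools (8.9%). The median correlation moved to 0.488 without these pools and to 0.246 when the diet mean was subtracted too. Levels per transcript length and sperm methylation at these genes were not run. No paired analysis was possible because the pools carry no numbers shared between diets. Low counts in Embryo511_1 (6 for MCM2, 10 for CDC45 and 12 for PCNA) limit the precision there, and the cause of these differences was not tested.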

Other observations

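Of the other replication genes, 3 are described here for their value in a single pool. POLA1, the catalytic subunit of the polymerase that starts each strand, had 516 counts (365 CPM) in Embryo444_2 and at most 115 CPM in the other 11 pools. POLD2, a subunit of polymerase delta, had 167 CPM in Embryo410_2 and 11.9 to 72.0 CPM elsewhere. TK1 had 4 counts (2.83 CPM) in Embryo444_2 against 12.0 to 116 CPM in the other pools. These genes were named by the rule for the lists, and the pools were singled out after their values were seen.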
